A study of Mus musculus with 4 samples.

Results

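The 38 genes described here encode parts of the contractile machinery of skeletal and smooth muscle, with a few of the regulators and membrane proteins that mark the same cells. Of these, 25 belong to skeletal muscle, 12 to smooth muscle and the mural cells of vessels, and desmin (Des) to both. They were chosen by name from 21951 protein-coding genes of the mouse annotation, and 37 of them carried at least 1 peak on the gene body or the 2 kb upstream; Mylpf, a fast skeletal myosin light chain, carried none. Chromatin accessibility was measured by single-nucleus ATAC-seq, in which a transposase cuts open DNA inside nuclei, in 32552 nuclei of whole frozen inguinal white adipose tissue from 21 male C57BL/6J mice aged 8 weeks. There were 7 groups of 3 mice. The D0_RT mice were taken at day 0 from room temperature (22 °C), before any treatment. Cold (6.5 °C) lasted 1 day in D1_C, 3 days in D3_C and 7 days in D7_C. The D1_CL, D3_CL and D7_CL mice received CL-316,243 (1 mg/kg daily), an agonist of the beta3-adrenergic receptor, over the same times at room temperature. The study describes no group given vehicle only, and CL and cold mice differed in both drug and temperature. No group carried a transgene. Each mouse, its group and 1 of 12 cluster names for each nucleus were read from the deposited nucleus table. Of 28031 distinct barcodes 4218 occurred in more than 1 mouse, and 89 of the 283 nuclei of the VSMC cluster carried such a barcode; whether these are separate nuclei was not tested. The value used throughout is CPM, the nuclei with a read in a peak of the gene, summed over its peaks and scaled to a common total of entries on all genes.

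Striated fibres contract when calcium leaves the sarcoplasmic reticulum through the ryanodine receptor and binds troponin, which frees actin for myosin; titin and nebulin set the length of the filaments. Smooth muscle lacks troponin and contracts when myosin light chain kinase phosphorylates myosin. In adipose tissue, smooth muscle cells and pericytes (together, mural cells) wrap the vessels, and skeletal muscle lies under the inguinal fat pad. Myod1 and Myog are transcription factors of the skeletal lineage that bind E-boxes, MEF2 proteins act with them, and serum response factor binds CArG boxes in genes of both muscle types.

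The sequences below are examples of regions of the 2 muscle programs, picked after their values were seen: those of Ckm, Myh4 and Acta1 were more open in a cluster deposited as VSMC, and those of Acta2 and Myl9 in a cluster deposited as APC2. Capitals mark exact matches to the E-box CAGCTG, the MEF2 box YTAWWWWTAR and the CArG box CCWWWWWWGG. Here Y is C or T, W is A or T and R is A or G. Each pattern equals its own reverse complement, so both strands were covered, and where boxes overlapped the capitals run together. Looser forms of the CArG box, such as ccctatatgg in the Acta2 promoter, were not searched for and stay in small letters. The first is a whole peak on Ckm, the muscle creatine kinase gene, at chr7:19409900-19410110 (plus strand), whose centre lay at -1089 bases from the RefSeq start of Ckm. The others are the 250 bases before the RefSeq start of Myh4 at chr11:67237562-67237811 (plus strand), Acta1 at chr8:123894776-123895025 (minus strand), Acta2 at chr19:34255374-34255623 (minus strand) and Myl9 at chr2:156775214-156775463 (plus strand). All are from RefSeq on GRCm38.p6, the build called mm10 in the files.
Ckm peak: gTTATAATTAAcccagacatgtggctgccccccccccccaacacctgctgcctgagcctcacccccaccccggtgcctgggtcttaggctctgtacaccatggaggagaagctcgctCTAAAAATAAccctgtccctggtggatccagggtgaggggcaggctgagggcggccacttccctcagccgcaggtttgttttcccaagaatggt
Myh4 promoter: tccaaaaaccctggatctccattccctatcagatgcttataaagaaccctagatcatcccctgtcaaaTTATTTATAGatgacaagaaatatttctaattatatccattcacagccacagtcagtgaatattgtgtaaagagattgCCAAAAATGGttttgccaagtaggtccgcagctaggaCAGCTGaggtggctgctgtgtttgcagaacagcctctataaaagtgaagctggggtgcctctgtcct
Acta1 promoter: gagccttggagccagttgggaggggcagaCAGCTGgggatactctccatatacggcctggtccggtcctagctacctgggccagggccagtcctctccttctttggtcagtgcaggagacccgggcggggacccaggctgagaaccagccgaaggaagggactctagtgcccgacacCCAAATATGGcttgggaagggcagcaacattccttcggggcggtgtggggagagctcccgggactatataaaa
Acta2 promoter: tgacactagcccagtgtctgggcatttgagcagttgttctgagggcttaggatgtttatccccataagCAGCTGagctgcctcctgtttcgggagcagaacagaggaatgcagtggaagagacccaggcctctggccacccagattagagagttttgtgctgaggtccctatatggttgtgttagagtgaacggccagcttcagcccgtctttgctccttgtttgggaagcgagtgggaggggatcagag
Myl9 promoter: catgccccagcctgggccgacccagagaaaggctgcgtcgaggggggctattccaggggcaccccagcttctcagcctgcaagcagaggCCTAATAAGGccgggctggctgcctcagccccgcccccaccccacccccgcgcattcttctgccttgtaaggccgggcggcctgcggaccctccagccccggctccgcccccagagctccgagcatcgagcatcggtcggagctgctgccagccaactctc
The Ckm peak held 2 MEF2 boxes, the Myh4 promoter held 1 of each motif, the Acta1 promoter an E-box and a CArG box, the Acta2 promoter an E-box and the Myl9 promoter a CArG box. Among the 300-base RefSeq promoters (250 bases before and 50 after the start) of 20 matched skeletal members, 9 (45%) held the E-box, 4 (20%) a MEF2 box and 2 (10%) a CArG box. The shares over all 32851 promoters of that length were 16.3%, 3.19% and 1.63%. Of 9 matched smooth members, 3 held the E-box, 1 a MEF2 box and 1 a CArG box. Neb, Actn3, Tnnt3, Tnni2, Myod1, Myh11, Actg2 and Tagln had no entry in the promoter table.

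Skeletal genes were open in the cluster deposited as VSMC (vascular smooth muscle cells), and smooth muscle genes were most open in APC2, a cluster deposited as adipose progenitor cells. VSMC held 283 nuclei and APC2 562. Over the 10 mice with at least 10 VSMC nuclei, the summed CPM of the skeletal members was 4580 ± 703 (mean ± SD, n = 10), with a lowest value of 3567, a median of 4561 and a highest of 5949. In the 19 mice with at least 10 APC2 nuclei it was 606 ± 70.7 (n = 19), from 486 to 728. The lowest VSMC library thus stood far above the highest APC2 library, and the mean was 7.55 times as high. In no other cluster did the mean sum come near that of VSMC; B cells, which have no contractile apparatus, gave 686 ± 55.2 (n = 21) and white adipocytes 551 ± 39.9 (n = 21). The summed smooth members ran the other way, at 1186 ± 312 (n = 10) in VSMC and 1862 ± 188 (n = 19) in APC2, a mean 1.57 times as high in APC2 (log2 ratio of VSMC to APC2 -0.65), and these libraries overlapped. With peaks near the GENCODE start only, that log2 ratio was -1.71. B cells gave 221 ± 31.7 (n = 21) for the smooth members. White adipocytes gave 1054 ± 85.1 (n = 21) and beige adipocytes 1080 ± 130 (n = 19), near the VSMC sum, and all others but APC2 were lower. The nuclei had been clustered by the study on these same entries, so differences between clusters are given as descriptions, without a test.

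**Figure D1:**
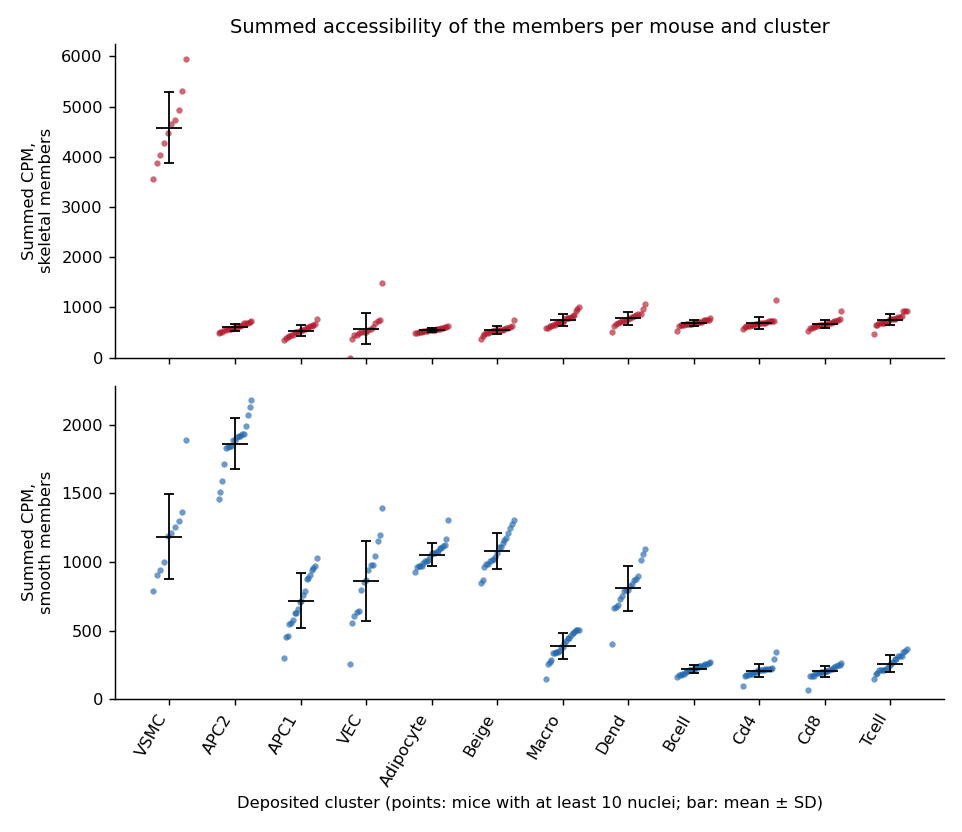
Summed CPM of the skeletal members (upper panel) and the smooth members (lower panel) in each deposited cluster. Each point is 1 mouse with at least 10 nuclei of that cluster and the black bar is the mean ± SD over mice; the skeletal members stand apart in VSMC (3567 to 5949) and the smooth members are highest in APC2 (1460 to 2181).

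The label VSMC therefore went against the contractile genes under it, and the cluster is called here by its deposited name only. The study itself described VSMC by Mylk4, Myh4, Myog, Myf5 and Myod1, which it listed as smooth muscle markers. It described APC2 by higher Pdgfrb and by mural genes, Acta2 and Myh11 among them. Of 40 further genes of skeletal muscle, 37 had at least 20 entries in both clusters together and 35 of these had the higher pooled CPM in VSMC. A gene with few entries in APC2 met that count only through VSMC, so the 35 are not independent of it. Myl1, a fast myosin light chain, was at 213 CPM against 2.59 in APC2, Atp2a1, the calcium pump of fast fibres, at 155 against 3.45, and Jph2, which ties the reticulum to the membrane, at 378 against 10.4. Of 32 further mural genes, 26 could be compared and 8 were higher in VSMC, Ppp1r12b (783 against 283 CPM) and Tpm1 (275 against 116) among them. The 32 genes summed to 2364 ± 249 CPM (n = 10) in VSMC and 2463 ± 256 (n = 19) in APC2, so their sum did not separate the clusters. Pdgfrb, the receptor that marks pericytes, was at 18.2 CPM in VSMC and 181 in APC2, and Kcnj8, a pericyte potassium channel, at 4.56 and 97.6. Over all 13797 genes with 20 entries, 50.6% were higher in VSMC. Of the 10 genes listed for heart muscle only 4 had a peak, and the list summed to 152 ± 36.2 CPM (n = 10) in VSMC and 123 ± 44.2 (n = 19) in APC2. The 10 adipocyte markers summed to 1362 ± 471 CPM in VSMC, between APC2 (654 ± 125) and white adipocytes (3081 ± 419), with Plin4 at 558 of a pooled 1234 and Adipoq at 6.08, and their part in the VSMC values was not tested.

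Among thin and thick filament genes, Ttn, encoding titin, reached 490 ± 89.6 CPM in VSMC (n = 10), from 422 through a median of 462 to 712, and 34.6 ± 23.9 in APC2 (n = 19), from 0 to 80.9. Acta1, skeletal actin, was at 100.0 ± 55.1 in VSMC, from 0 to 202, and at 3.24 ± 7.28 in APC2, where 15 of 19 libraries had no entry. Myh4, the myosin of the fastest fibres, was at 58.9 ± 50.1 CPM in VSMC with 1 library at 0, and in APC2 18 of 19 libraries were at 0. Its pooled ratio rested on 36 entries against 1, which gave 63.3 (95% exact interval 10.7 to 2570, counting error only). Myh1, another fast myosin, had 29 entries against 2 and a ratio of 25.5 (6.45 to 221). Myh2, the myosin of intermediate fibres, had 5 entries in VSMC and 0 in APC2, where 3 entries would be 2.59 CPM, too few to read a level from. Neb, which encodes nebulin, was at 489 ± 192 in VSMC and 46.5 ± 22.6 in APC2.

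Of the troponin genes, those of fast fibres stood out and those of slow fibres did not. Tnni2 was at 309 ± 101 CPM in VSMC and 9.38 ± 12.5 in APC2, Tnnt3 at 289 ± 99.0 and 16.7 ± 17.1, and Tnnc2 at 179 ± 49.5 and 3.98 ± 8.27; none of these overlapped. Tnnt1, the slow troponin T, had the lowest ratio of all skeletal members, 0.607 in pooled CPM, and was highest in dendritic cells (38.6). Tnnc1, the slow troponin C, had a ratio of 1.07 and its only peak also lay on Nisch. Tnni1, the slow troponin I, was at 110.0 ± 77.8 in VSMC and 45.6 ± 32.9 in APC2, but also at 105 ± 17.1 in white adipocytes (n = 21). The only peak of Tnnc2 was shared with Ube2c and the only peak of Acta1 with Gm20388, so entries there cannot be assigned to 1 gene.

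Calcium handling and metabolic members followed the same order. Mylk4, a kinase of the myosin light chain kinase family, had the largest ratio that rested on over 3 entries on each side, 35.6, with 431 ± 189 CPM in VSMC (208 to 871) and 9.51 ± 13.6 in APC2. It was followed by Acta1 (29.0) and Tnnc2 (25.9). Ckm, which buffers ATP in the fibre, was at 293 ± 120 in VSMC (79.2 to 463) and 10.4 ± 12.7 in APC2 (0 to 37.3), a pooled ratio of 23.4. Only 3 of the 6 Ckm peaks, and 1 of the 3 on Actn3, lay on 1 gene alone, so part of their entries cannot be assigned. Ryr1, the ryanodine receptor, was at 357 ± 59.8 and 72.6 ± 38.2, and Cacna1s, the voltage sensor that opens it, at 262 ± 65.2 and 24.1 ± 23.9. Casq1, which stores calcium in the reticulum, had a ratio of 3.35, and Actn2, Actn3, Mybpc1 and Mybpc2, proteins of the Z-disc and the thick filament, had ratios of 7.54, 3.05, 2.42 and 2.12.

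Among the transcription factors, Myod1 was at 83.2 ± 45.5 CPM in VSMC, with a lowest library at 42.2, and at 3.48 ± 6.17 in APC2, with a highest at 17.8, so the libraries did not overlap. Myog had only 6 entries in VSMC and 1 in APC2 (ratio 10.6, interval 1.28 to 486) and was highest in VEC, the endothelial cluster, at 17.2 CPM. Pax7, which marks muscle stem cells, was at 38.3 ± 37.7 in VSMC but at 54.8 in B cells pooled, so it did not single out VSMC. Of the related factors, Myf6 was at 33.4 CPM in VSMC with no entry in APC2, and Myf5 had no peak on the gene or upstream, so nothing could be read for it. Msc was higher in APC2 (41.5 against 7.60 CPM), as was Mymk (18.1 against 0). A list of 16 myogenic genes with Myod1, Myog and Pax7 had 12 that could be compared, 9 of them higher in VSMC. Of these, Myod1 and Pax7 met the 20 entries through VSMC. The list summed to 1489 ± 150 CPM in VSMC (n = 10), 458 ± 90.1 in APC2 (n = 19) and 1306 ± 58.3 in B cells (n = 21).

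Counted over the list, 22 skeletal members had at least 20 entries in VSMC and APC2 together, and 21 of them were higher in VSMC, Tnnt1 being the exception. Ckm, Acta1, Tnnt3, Tnni2, Tnnc2, Myh1, Myh4, Mylk4, Myod1 and Pax7 had under 20 entries in APC2 alone. They met the count through VSMC, so their order is not independent of it. In 10 of the 22 (Ckm, Ttn, Neb, Ryr1, Tnnt3, Tnni2, Tnnc2, Cacna1s, Mylk4 and Myod1) every VSMC library lay above every APC2 library. Under the same count 1.47% of all 13797 genes did so. That choice fixes the order within the 8 mice with both libraries, so their higher VSMC values for these genes add nothing to it. The median log2 ratio of the skeletal members was 3.28 on the log2(CPM + 1) scale, against 0.01 over all genes. Of the 24 skeletal members with a peak, 19 had their highest pooled CPM in VSMC; besides Tnnt1, Tnnc1, Myog and Pax7, the exception was Myh2, highest in APC1 (12.4).

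**Figure D2:**
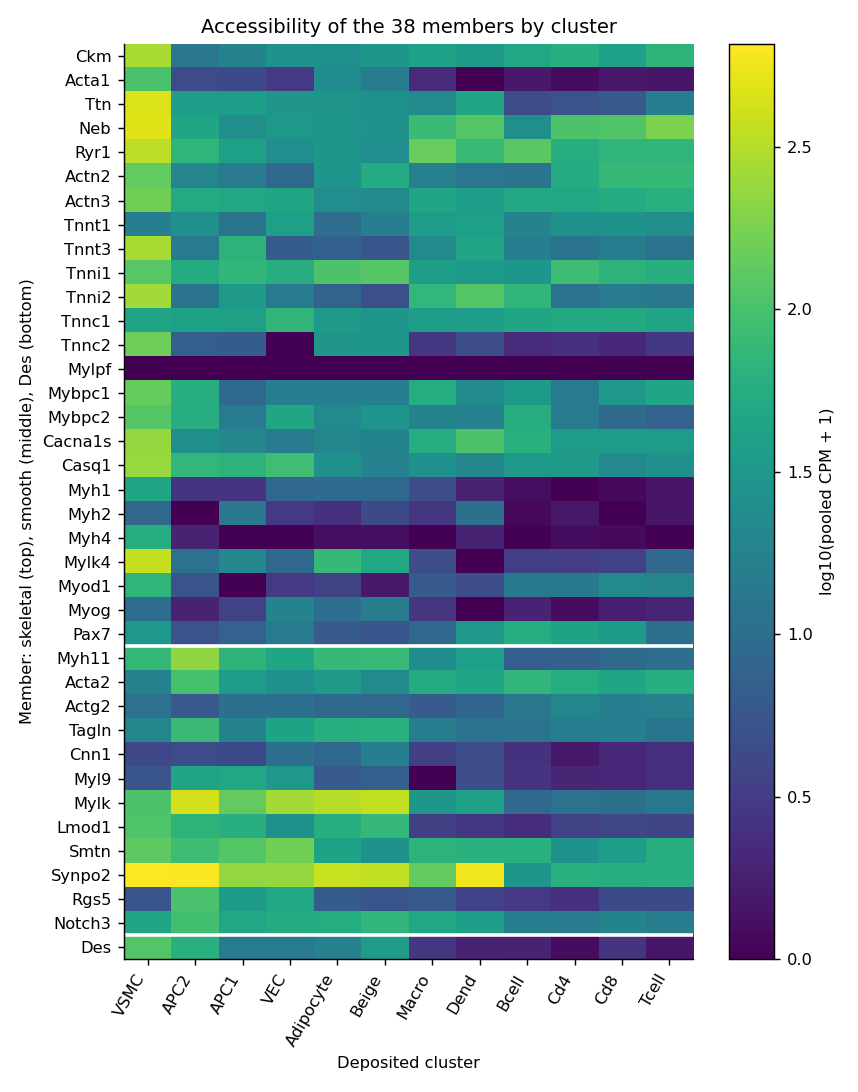
Pooled CPM of each of the 38 members in the 12 deposited clusters, as log10(CPM + 1) in colour; rows are skeletal members, then smooth members, then Des. The VSMC column is brightest over most skeletal rows (Ttn 463, Neb 476 CPM) while Acta2, Tagln and Rgs5 are brightest under APC2.

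The smooth members fell into those that were low in VSMC and those that were not. Rgs5, a regulator of G protein signalling in pericytes, was at 101 ± 38.3 CPM in APC2 (n = 19), from 55.9 to 189, and at 0 in 9 of 10 VSMC libraries. Its 117 entries against 3 gave 22.2 times the CPM in APC2 (95% exact interval 7.40 to 109). Acta2, smooth muscle actin, was at 107 ± 47.3 in APC2 (40.4 to 201) and 7.73 ± 10.8 in VSMC (0 to 29.9). For Rgs5 and Acta2 every APC2 library lay above every VSMC library, as in 2.01% of all genes. Tagln, an actin-binding protein of smooth muscle, was 4.45 times as high in APC2, with 79.7 ± 32.3 against 12.7 ± 19.2 CPM, and Mylk, the myosin light chain kinase, 4.10 times, with 418 ± 111 against 91.8 ± 51.6. Myh11, the smooth muscle myosin, was at 222 ± 63.9 in APC2 (114 to 344) and 75.7 ± 60.8 in VSMC (0 to 202), and overlapped. Myl9, a myosin light chain, had 50 entries against 3, 9.47 times the CPM in APC2 (3.06 to 47.5), and was about as open in APC1 (46.2 CPM pooled, against 43.2 in APC2).

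Notch3, a receptor of mural cells, overlapped widely between APC2 (85.6 ± 48.5) and VSMC (53.4 ± 37.2). Synpo2, an actin-bundling protein found in the Z-disc as well as in smooth muscle, did not differ beyond its spread, at 634 ± 124 in APC2 and 661 ± 220 in VSMC. Lmod1, which nucleates actin filaments, was at 130 ± 60.4 in VSMC and 69.6 ± 39.6 in APC2 (ratio 1.60), and Smtn, a cytoskeletal protein, at 133 ± 92.0 and 92.2 ± 41.8 (ratio 1.50). Smtn was highest in VEC (165 CPM pooled). Cnn1, calponin, and Actg2, the enteric actin, had 6 and 13 entries over both clusters (2 and 4, 7 and 6 in VSMC and APC2), too few to order them, and were highest in Beige (15.3) and Cd4 (18.7). Of the 10 smooth members that could be compared, 3 were higher in VSMC, and the median log2 ratio was -1.80. Acta2, Tagln, Myl9 and Rgs5 met the 20 entries through APC2, so their order is not independent of that count. Des, the intermediate filament of both muscle types, was at 121 ± 81.0 in VSMC and 60.2 ± 30.8 in APC2, higher in VSMC in 8 of 8 mice, and at 0.825 ± 1.15 in B cells.

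Single nuclei showed the same separation. Of 283 VSMC nuclei, 272 (96.1%, exact 95% interval 93.2 to 98.0) had at least 1 entry on a skeletal member, against 328 of 562 APC2 nuclei (58.4%, 54.2 to 62.5) and 5728 of 11967 B cells (47.9%, 47.0 to 48.8), at median depths of 1632, 1815 and 974 entries. The B cell share is given as a background, since these cells have no contractile apparatus. Thinned to 1000 entries, which left out 90 VSMC, 147 APC2 and 6157 B cell nuclei, at least 3 skeletal entries were found in 66.3% of VSMC nuclei (59.2 to 73.0), 1.205% of APC2 nuclei (0.392 to 2.79) and 2.10% of B cells (1.75 to 2.50). At least 3 smooth entries were found in 17.3% of thinned APC2 nuclei (13.8 to 21.3), 8.29% of VSMC nuclei (4.81 to 13.1) and 0.12% of B cells (0.0485 to 0.248). The share was 7.10% in VEC, 5.48% in Beige and 5.12% in white adipocytes, all inside the VSMC interval. Of the 193 thinned VSMC nuclei, 115 passed for the skeletal list alone, 3 for the smooth list alone, 13 for both and 62 for neither. Nuclei of 1 mouse share a library and are no replicates.

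Skeletal peaks were more open in VSMC both near the gene start and farther away. Of 145 peaks on skeletal members, 103 had at least 10 entries in VSMC and APC2 together, and 76 of these (73.8%) were at least 4 times as open in VSMC, against 13.4% of all 60684 such peaks; none was at least 4 times as open in APC2. A peak with few APC2 entries met the 10 entries only through VSMC, so these counts are not independent of that limit. Of the 32 peaks within 2 kb of the GENCODE gene start, 32 were higher in VSMC. That start differs from the RefSeq start by 6318 bases for Ckm and 19987 for Tnni1, so the peak over the RefSeq start of Ckm counts as farther away. Where a peak covered the RefSeq promoter of a skeletal member, as it did in 9 of 20, it was higher in VSMC in all 9. The Ckm peak printed above had 37 entries in VSMC (56.2 CPM) and 0 in APC2, and the peak over the Ckm start at chr7:19410732-19411150 had 55 entries (83.6 CPM) and 0. The Myh4 promoter peak was at 54.7 CPM in VSMC, 0.864 in APC2 and 0.264 in adipocytes. A peak 228 bases before the start of Myod1 was at 36.5 CPM in VSMC with no entry in APC2. Ttn had 3 peaks around its start, and that over the promoter was at 72.9 against 0.864 CPM.

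Of the 126 peaks on smooth members, 86 could be compared, and 41 of them (47.7%) were at least 4 times as open in APC2, against 32.0% of all peaks. A peak with few VSMC entries could be compared only through APC2, so these counts are not independent of that limit either. The smooth share was 9 of 14 (64.3%) within 2 kb of the GENCODE start and 32 of 72 (44.4%) farther away. For Mylk that start lay 39740 bases from the RefSeq start. The peak over the Acta2 start was at 36.3 CPM in APC2 and 1.52 in VSMC, that of Myl9 at 33.7 and 3.04, and that of Rgs5 at 14.7 with no entry in VSMC. The other 6 peaks that passed 4 times did so toward VSMC, and they lay on Synpo2 (4), Smtn (1) and Lmod1 (1), the members that were not low in VSMC. The Smtn peak, 13513 bases inside the gene, was at 53.2 CPM in VSMC and 0.864 in APC2, while the peak over the RefSeq start of Smtn was at 31.9 and 35.4. The Lmod1 peak, 13150 bases inside, had 15 entries in VSMC and 0 in APC2, with the promoter peak at 16.7 and 9.50 CPM. On Synpo2, a peak 92540 bases inside was at 37.99 in VSMC and 1.73 in APC2, and another, 56876 bases inside, had no entry in VSMC and was at 28.5 in APC2. The gene sums of these members thus pooled peaks of opposite direction.

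**Figure D3:**
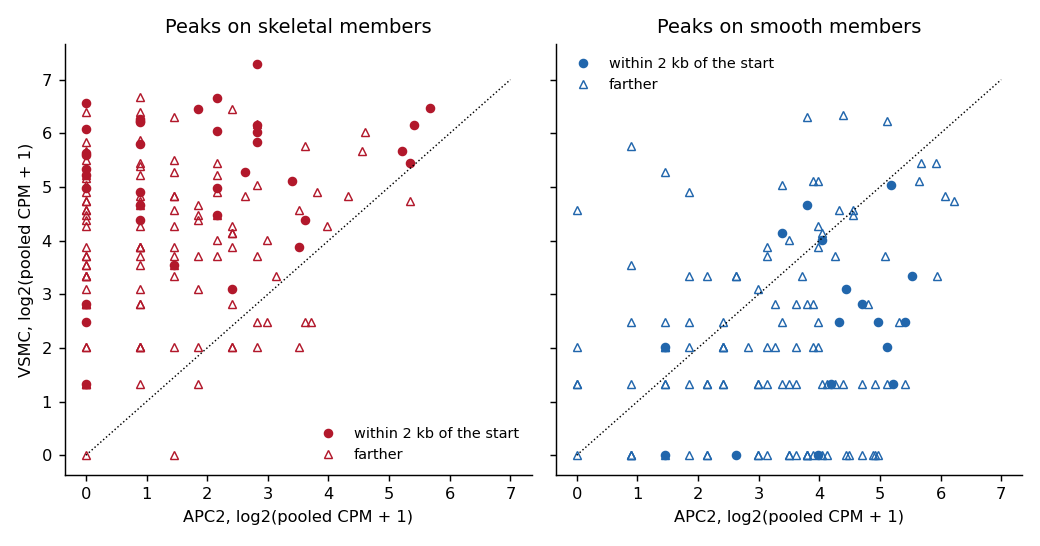
Each peak on a skeletal member (left) and a smooth member (right), with pooled CPM in APC2 on the horizontal axis and in VSMC on the vertical axis, both as log2(CPM + 1); filled circles lie within 2 kb of the gene start, open triangles lie farther, and the dotted line marks equal values. Most skeletal peaks lie above the line and 41 of the 86 smooth peaks with at least 10 entries are at least 4 times as open in APC2.

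The motifs were also counted in the central 200 bases of peaks. Of the 76 skeletal peaks at least 4 times as open in VSMC, 12 (15.8%) held the E-box, 4 (5.26%) a MEF2 box and 4 (5.26%) a CArG box, where 15.3%, 2.68% and 1.07% of all peaks did. Of the 41 smooth peaks at least 4 times as open in APC2, 8 (19.5%) held the E-box, 4 (9.76%) a CArG box and 0 a MEF2 box. A match is a description of the letters and no sign of binding.

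Some single members were well above B cells in adipocytes, but the skeletal list as a whole was not. Its sum was 551 ± 39.9 CPM in white adipocytes and 543 ± 80.8 in beige, against 686 ± 55.2 in B cells. The smooth sum was higher, at 1054 ± 85.1 in white adipocytes against 221 ± 31.7 in B cells. In white adipocytes Mylk was at 317 ± 42.5 CPM (n = 21), Mylk4 at 77.3 ± 17.5 and Acta1 at 22.8 ± 9.80, against 7.42 ± 4.44, 2.33 ± 2.40 and 0.531 ± 1.27 in B cells (n = 21). In beige adipocytes (n = 19) Actn2 was at 54.8 ± 23.2 against 27.6 ± 8.83 in white adipocytes, Des at 36.8 ± 15.7 against 15.4 ± 5.66, and Mylk4 at 45.1 ± 18.4 against 77.3 ± 17.5. Summed over white and beige nuclei of each mouse, the skeletal members ranged from 468 to 614 CPM in the 21 mice. The smooth members ranged from 941 to 1303. The skeletal sum was 519, 541 and 534 in D0_RT, 594, 601 and 575 in D3_C and 550, 601 and 573 in D7_C. Every D3_C and D7_C mouse thus lay above every D0_RT mouse. The D1_CL mice (512, 500 and 511) lay below every D0_RT mouse, and the D1_C, D3_CL and D7_CL mice overlapped with day 0. The smooth sum overlapped with day 0 in every treated group. Differences in these sums were not tested.

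Cold and CL were compared with day 0 in these adipocyte nuclei over all 14429 genes that passed the count filter, 27 members among them, with edgeR's quasi-likelihood test and Benjamini-Hochberg adjustment. White and beige nuclei were pooled, and beige nuclei made up 7.69% to 12.2% of them in the D0_RT mice, 26.1% to 32.5% in D7_C, 14.5% to 23.5% in D7_CL and 7.35% to 20.98% in the other treated mice. Of 10 adipocyte markers, 5 were called lower in D3_C, 6 in D3_CL, 8 in D7_C and 7 in D7_CL, and 1 higher in each of D3_C, D3_CL and D7_CL. The part of this mix in the calls was tested only with white nuclei alone, where each call below was kept and 3 were added, Lmod1 lower in D3_C and D7_C and Cacna1s higher in D1_CL. Cnn1, Myh1, Myh2, Myh4, Myl9, Mylpf, Myod1, Pax7, Rgs5, Tnni2 and Tnnt3 did not pass the filter. Against D0_RT, no member was called in D1_C (0.34% of all genes), D3_C (1.68%) or D1_CL (2.61%). In these, 3, 3 and 6 members had an unadjusted p under 0.05, as did 1439, 2072 and 2189 of the 14429 genes. DESeq2 called no member there, but it gave no adjusted p for 24 of the 27 in each. In D7_C 1 member was called (5.08% of all genes), in D3_CL 2 (4.77%) and in D7_CL 3 (7.81%), all of them higher than at day 0. They include Cacna1s and Mybpc1, which met the count filter through treated mice, so the direction of those calls is not independent of it. Between CL and cold, 0 members were called at day 1 (0.922%), 2 at day 3 (1.46%) and 0 at day 7 (0.111%). An unadjusted p under 0.05 was found for 4 members at day 1 (1843 of all genes) and 3 at day 7 (1231). DESeq2 called none, but gave no adjusted p for 22 members at day 1 and 19 at day 3. The members with the lowest p where none was called were Cacna1s (1.18 ± 0.38), Lmod1 (-0.59 ± 0.19) and Tnnc1 (0.52 ± 0.22) in D1_C, Lmod1 (-0.51 ± 0.16), Cacna1s (0.91 ± 0.35) and Mylk4 (0.35 ± 0.16) in D3_C, and Cacna1s (1.22 ± 0.40), Synpo2 (-0.40 ± 0.13) and Lmod1 (-0.50 ± 0.20) in D1_CL, as log2 difference ± SE. Between CL and cold these were Synpo2 (-0.44 ± 0.13), Myh11 (0.52 ± 0.19) and Tnnc1 (-0.63 ± 0.23) at day 1, and Myh11 (0.33 ± 0.13), Neb (0.47 ± 0.20) and Tnni1 (-0.27 ± 0.12) at day 7. The 6 contrasts with day 0 share the same D0_RT mice.

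Myh11 was the member with the firmest change. It stood at 45.0, 63.2 and 58.9 CPM in the D0_RT mice, at 71.8, 65.4 and 58.1 in D3_C, at 105, 102 and 92.4 in D3_CL and at 84.9, 79.0 and 77.7 in D7_CL. The D3_CL mice lay above all day 0 and all D3_C mice, and the D7_CL mice above all day 0 mice. The log2 difference from day 0 was 0.83 ± 0.16 (SE) in D3_CL (edgeR adjusted p = 0.000218) and 0.56 ± 0.16 in D7_CL (adjusted p = 0.0195). D3_CL was above D3_C by 0.55 ± 0.11 (adjusted p = 0.00158). Under DESeq2 only the first was called (adjusted p = 0.00620, the highest of 7 alternatives, the lowest being 0.000158), among 1.22% of all genes. Peaks near the start are not among these 7, since Myh11 gave no value there. Without D3_CL replicate 2 the difference from D3_C was no longer called (adjusted p = 0.110), and the D7_CL call was lost without D0_RT replicate 1 (0.160), D0_RT replicate 3 (0.0720) or D7_CL replicate 1 (0.199). The largest share of the entries lay in a peak 32293 bases inside the gene, at 30.5 CPM in D0_RT, 32.2 in D3_C and 49.1 in D3_CL.

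Cacna1s was at 8.18, 14.0 and 5.78 CPM in D0_RT, from only 4 or 5 entries a mouse, and at 22.5, 17.98 and 18.3 in D7_C, 21.9, 17.9 and 19.6 in D3_CL and 21.1, 19.7 and 9.14 in D7_CL. It was called in D7_C (log2 difference 1.13 ± 0.36, edgeR adjusted p = 0.0494), D3_CL (1.10 ± 0.34, 0.0426) and D7_CL (1.09 ± 0.34, 0.0335), and not in D1_C, D3_C or D1_CL, where the differences were 1.18, 0.91 and 1.22. The gene passed the count filter (10 entries at the median depth, in 3 mice) through treated mice. D0_RT replicates 1 and 3 lay below it, so the calls are not independent of that filter. These calls were also thin. Leaving out D0_RT replicate 1 or 3 ended each (adjusted p from 0.0954 to 0.380), as did leaving out any D3_CL mouse for that group (0.0571 to 0.0925), any D7_C mouse for D7_C (0.0664 to 0.161) and D7_CL replicate 1 for D7_CL (0.360). In D7_C, 15 of 21 omissions ended the call. The study names 3 batches without tying them to mice; with the replicate number as a block, the calls in D7_C (adjusted p = 0.0560) and D7_CL (0.0675) were lost. DESeq2 gave no adjusted p for it. The peak over its promoter was at most 1.58 CPM pooled in any group, and the peak at -1108 bases was at 1.22 CPM pooled in D0_RT and between 4.19 and 5.53 in the treated groups.

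Mybpc1, a myosin-binding protein of slow fibres, was at 8.18, 17.6 and 5.78 CPM in D0_RT and 20.1, 21.8 and 18.3 in D7_CL, without overlap (log2 difference 1.09 ± 0.34, edgeR adjusted p = 0.0325). Its D0_RT values rested on about as few entries a mouse as those of Cacna1s. Here too D0_RT replicates 1 and 3 lay below the count filter, which was met through treated mice. The call ended without D0_RT replicate 1 (0.107), D0_RT replicate 3 (0.362), D7_CL replicate 1 (0.167) or D7_CL replicate 2 (0.0518). Lmod1 differed between the treatments at day 3, with 69.97, 75.9 and 67.7 CPM in D3_CL and 54.0, 45.7 and 46.9 in D3_C (0.50 ± 0.12, adjusted p = 0.0106), and was at 73.6, 91.3 and 67.0 in D0_RT. Its difference from day 0 did not pass in D3_C (-0.51 ± 0.16, adjusted p = 0.0851). Without D3_CL replicate 2 or D3_C replicate 1 the day 3 difference was not called (0.371 and 0.0503), nor under DESeq2 (0.402).

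**Figure D4:**
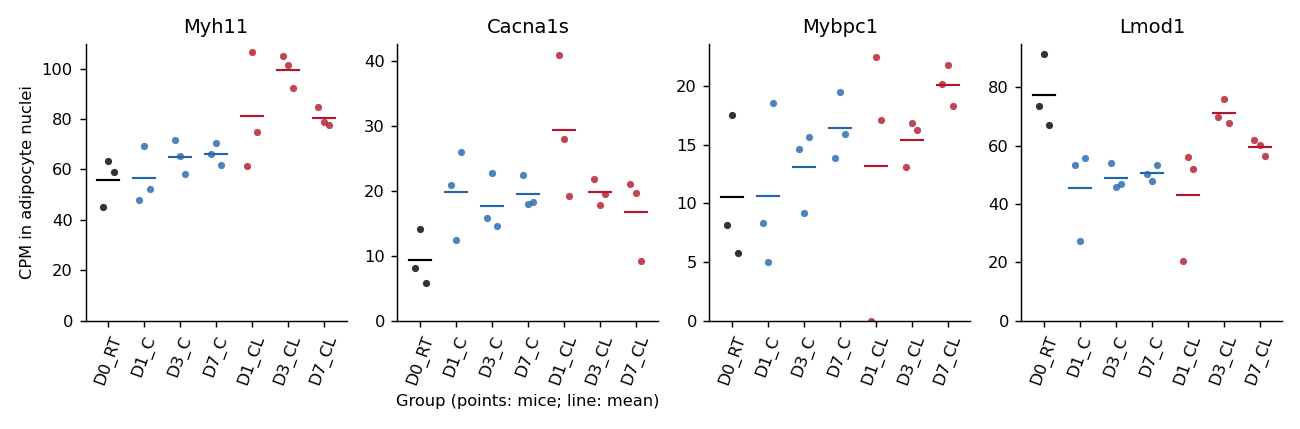
CPM of Myh11, Cacna1s, Mybpc1 and Lmod1 in the white and beige adipocyte nuclei of each mouse, by group; points are mice, lines are group means, black is day 0, blue is cold and red is CL. The 3 D3_CL mice lie at 92.4 to 105 for Myh11, above all day 0 mice (45.0 to 63.2).

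Of the further skeletal genes, 27 were tested in adipocytes. Of these 5 were called higher and 2 lower in D7_CL (7.81% of all genes called), 2 higher and 1 lower in D3_CL (4.77%), 1 higher and 2 lower in D7_C (5.08%), 2 higher in D1_CL (2.61%), 1 higher in D3_C (1.68%) and 1 lower in D1_C (0.34%). Myom1, a protein of the M-band, was higher in D3_C (0.69), D7_C (1.24), D3_CL (0.75) and D7_CL (0.77, log2), and Xirp2, an actin-binding protein, in D3_CL (0.99) and D7_CL (1.30). The others higher in D7_CL were Rbfox1 (0.85), Mef2c (0.69) and Dmd (0.51). No alternative setting or omission of a mouse was run for the further skeletal and mural genes. Ldb3, a Z-disc protein, was lower in D3_CL (-0.36) and D7_CL (-0.35). Of 27 further mural genes tested, 2 were called lower in D7_CL (Flna, an actin crosslinker, at -0.64, and Sncg at -0.46), 1 lower in each of D7_C (Mcam, -0.58), D3_CL (Flna, -0.82) and D1_C (Heyl, -1.01), and 1 higher in each of D3_CL (Ppp1r12b, 0.42) and D3_C (Ednra, 0.63), with none in D1_CL. Ppp1r12b, a myosin phosphatase subunit, was higher in D3_CL than in D3_C (0.40), and Ednra, the endothelin receptor, lower (log2 difference -0.81, edgeR adjusted p = 2.19e-06).

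In the sum over all nuclei of a mouse, the highest skeletal levels were found where VSMC nuclei were most numerous. The skeletal members summed to between 554 and 869 CPM. The 2 highest mice, D3_C replicate 2 (869) and D3_C replicate 1 (748), were also those with the most VSMC nuclei, 43 and 57, and without these nuclei they stood at 692 and 618. D1_CL replicates 1 and 2 stood at 717 with no VSMC nucleus. The D3_C mean was 767 ± 94.4 (n = 3) with and 648 ± 38.9 without VSMC nuclei, against 645 ± 3.63 and 643 ± 3.09 in D0_RT. VSMC nuclei numbered 0, 1 and 4 in the D0_RT mice and 114 over the 3 D3_C mice, 51 in D3_CL, 60 in D7_C, 26 in D7_CL, 14 in D1_CL, all in replicate 3, and 13 in D1_C. In such sums fewer nuclei of a type and less open chromatin per nucleus cannot be told apart, and how much of the tissue taken was muscle was not measured.

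**Figure D5:**
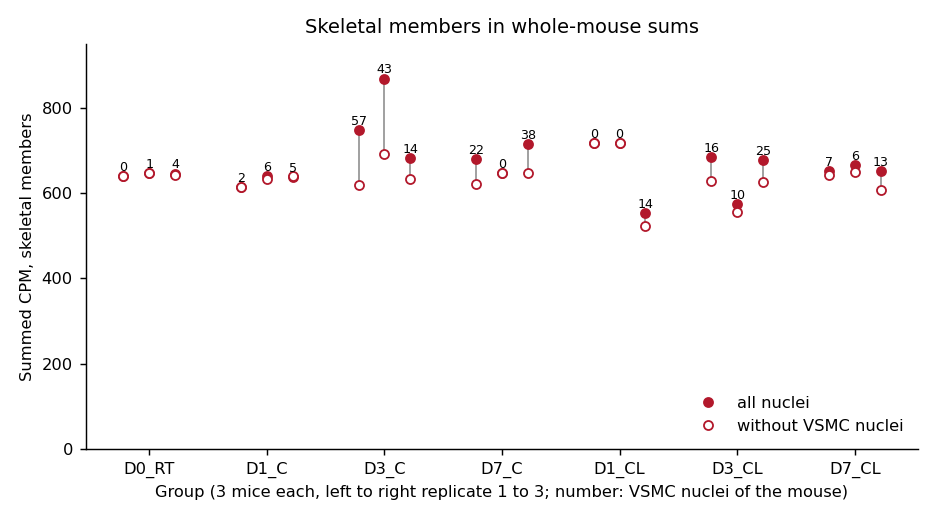
Summed CPM of the skeletal members over all nuclei of each mouse (filled) and without its VSMC nuclei (open), by group; the number over each point is the mouse's count of VSMC nuclei. The 2 mice with 57 and 43 VSMC nuclei stand highest with them (748 and 869) and not without them (618 and 692).

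No member passed the test in the whole-mouse sums. With 35 members among 15932 genes, edgeR called 0 members and 0% of all genes in each of the 6 contrasts with day 0 and the 3 between CL and cold. An unadjusted p under 0.05 was found for 1 member in D1_C (694 of all genes), 10 in D3_C (1501), 4 in D7_C (1276), 4 in D1_CL (1636), 15 in D3_CL (4651) and 11 in D7_CL (3143). Between CL and cold it was found for 1 (771 of all genes), 1 (299) and 0 (210) at days 1, 3 and 7. DESeq2 called Ttn in D3_C (0.0377% of all genes) and Myh11 and Tnni1 in D3_CL (3.55%), and no member elsewhere; in D1_CL it gave no adjusted p for 33 of the 35. Ttn stood at 9.66, 12.5 and 14.0 CPM in D0_RT and at 44.4, 33.9 and 22.5 in D3_C, without overlap, a log2 difference of 1.44 ± 0.30 (edgeR adjusted p = 0.440) that was 0.70 ± 0.33 without VSMC nuclei. Mylk4 differed by 1.55 ± 0.52 in D3_C (adjusted p = 0.507) and by 1.23 ± 0.53 without VSMC nuclei. Myh11 in D3_CL was at 46.0, 96.3 and 55.9 CPM against 15.7, 26.8 and 27.0 at day 0, a difference of 1.56 ± 0.39 (adjusted p = 0.0995) and 1.55 ± 0.39 without VSMC nuclei. The highest of these mice, D3_CL replicate 2, held 847 white adipocyte nuclei among 1242, and in D3_CL the 10 adipocyte markers had a median log2 difference of 0.96 and the 10 T cell markers of -1.12; Myh11 was at 72.0 ± 18.4 CPM in white adipocytes (n = 21) and 5.77 ± 4.48 in B cells (n = 21). The part of this mix in the whole-mouse difference was not tested. The members with the lowest p in the other contrasts with day 0 were Rgs5 (log2 difference 0.88), Tnni1 (0.43) and Cnn1 (0.89) in D1_C, Rgs5 (0.86), Myl9 (1.00) and Cnn1 (1.11) in D1_CL, Ttn (0.88), Rgs5 (0.68) and Cnn1 (1.08) in D7_C, and Tagln (0.99), Ttn (0.89) and Myh11 (1.12) in D7_CL, and those next in D3_C and D3_CL were Casq1 (0.45), Myh1 (1.54) and Tnni1 (0.75). Between CL and cold they were Smtn (0.35), Tnnt3 (0.51) and Neb (0.42) at day 1, Tnnt3 (-0.62), Mybpc2 (-0.49) and Actn3 (-0.38) at day 3, and Casq1 (-0.25), Synpo2 (0.39) and Tagln (0.34) at day 7. Without D1_CL replicate 3, a mouse with 559 white adipocyte nuclei among 1111 where the other D1_CL mice had 23 and 63, edgeR called 10 members in D3_CL against day 0, with 14.3% of all genes, and none in the other groups.

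Within the VSMC cluster, day 0 gave no library of 10 nuclei, so no comparison with day 0 could be made there. Between 5 CL and 5 cold libraries, with the days together, edgeR called 0 of 10 members tested and 0% of 643 genes, with 0 members and 38 genes at an unadjusted p under 0.05, and DESeq2 called 0. The 9 skeletal members tested differed by -0.22 to 0.21 on the log2 scale; Ttn differed by -0.03 ± 0.21 and Ckm by -0.20 ± 0.25. In APC2, treated mice were compared with day 0 for 1693 genes, and edgeR called 0% of them and none of the 3 members tested, with 0 members and 105 genes at an unadjusted p under 0.05 and 0 calls by DESeq2. Mylk differed by 0.23 ± 0.21, Synpo2 by 0.16 ± 0.18 and Myh11 by 0.17 ± 0.26. The VSMC nuclei in libraries under 10 nuclei varied: the 5 nuclei of D1_C replicate 3 gave a skeletal sum of 279 CPM and the 6 of D1_C replicate 2 gave 1539, where the 6 of D7_CL replicate 2 gave 5341.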

How the data were processed

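Nuclei of whole frozen inguinal adipose tissue were indexed combinatorially and sequenced in 4 lanes. The labels name lanes, not mice, so mice, groups and clusters came from the deposited nucleus table. Per the study's methods and the submitters' processing notes, the authors aligned reads to mm10 with Bowtie2, removed duplicates, called peaks per cluster with MACS2 and merged them. The authors deposited the counts as a matrix of 189598 peaks by nucleus, in which every entry tested was 0 or 1. The deposited matrix held 65588856 entries of 1, and each mouse had 1111 to 2021 nuclei.

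Peaks on each GENCODE gene and the 2000 bases upstream were summed per mouse and cluster, keeping libraries of at least 10 nuclei, and 5.61% of such peaks lay on 2 or more genes. Peaks near the start were those within 2 kb of the GENCODE start, which for some members is not the RefSeq start. Depth ran from 11095 to 169166 gene entries a library in VSMC and from 30344 to 120296 in APC2. For treatments, the quasi-likelihood test of edgeR 4.0.16 was run on TMM-scaled sums after its filterByExpr step, with Benjamini-Hochberg adjustment and a threshold of 0.05, and DESeq2 1.42.0 served as the alternative. The edgeR test was checked on simulated data. Levels between clusters were described by mean ± SD over mice. Exact (Clopper-Pearson) 95% intervals cover counting error only. Nothing states that the mice of a group were housed apart, so p-values measure the spread between these mice. The barcode sequence of 4218 of 28031 was found in more than 1 mouse, that of 89 VSMC nuclei among them.

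Members and lists were chosen with earlier results of these data known. Values are given for Ckm, Acta1, Ttn, Myh1, Myh4, Mylk4, Myod1, Myog, Pax7, Myh11, Acta2, Tagln, Cnn1, Rgs5, Notch3 and Des, for the 3 highest and lowest VSMC to APC2 ratios of each list, for members past a threshold (otherwise the 3 lowest p) and for members highest in another cluster. Other genes, and single peaks, were picked after their values were seen.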

Additional observations from a re-analysis of the deposited data

Results flagged for a closer look

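Of 18 values looked at over the 10 VSMC libraries, 6 had a library apart from the others by a gap test. Its nominal rate of about 1 in 20 holds for normal values of equal spread. These were sparse counts from libraries of 11095 to 169166 gene entries, so that rate does not apply and no excess is read from the 6. D7_CL replicate 3 was highest for Ttn (712 CPM, median 462), Mylk4 (871, median 394) and Des (317, median 117). D3_CL replicate 1 was highest for Myog (85.1, median 3.81), D3_C replicate 1 was the only library with an entry on Rgs5 (17.7), and D1_CL replicate 3 was highest for the summed smooth members (1893, median 1200). These libraries held 13 (D7_CL replicate 3), 16 (D3_CL replicate 1), 57 (D3_C replicate 1) and 14 (D1_CL replicate 3) nuclei.

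In adipocytes at day 3, the change from day 0 differed between CL and cold for Myh11 (log2 difference 0.55, CL higher) and Lmod1 (0.50, CL higher), by edgeR's contrast of both treatments.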

How the results depend on the processing

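The skeletal ratio of VSMC to APC2 (log2 2.92) lay between 2.72 and 3.06 under 14 alternatives and between 2.87 and 2.96 without each mouse. The smooth ratio (-0.65) lay between -0.75 and -0.59 without each mouse and was -1.71 with peaks near the start only. The share of VSMC nuclei with a skeletal entry (96.1%) was 77.0% at 3 entries, and that of APC2 nuclei with a smooth entry (84.5%) was 50.5% at 3 entries and 75.7% after thinning. The 6 member calls against day 0 in adipocytes, those of Cacna1s and Mybpc1 not independent of the count filter, became 1 with DESeq2 and 0 with peaks near the start. DESeq2 gave no adjusted p for 18 to 24 of the 27 members in each contrast. With peaks near the start Myh11, Cacna1s and Mybpc1 gave no value, so that 0 is no test of their calls. The calls became 3 with nuclei of at least 2000 entries and 1 to 6 without each mouse. The 2 calls between CL and cold became 0 with DESeq2, 1 with peaks near the start, where Myh11 gave no value, and 0 to 3 without each mouse. The 0 calls against day 0 in whole-mouse sums became 3 with DESeq2 (665 calls over all genes in the 6 contrasts), 3 with nuclei of at least 2000 entries (987 calls), 19 with only the groups compared (7538 calls) and 0 to 10 without each mouse (2368 calls at the highest). The cause was not tested. In VSMC, APC2 and the whole-mouse comparison of CL with cold, 0 members were called under every alternative run. VSMC could not be compared with day 0, and its comparison of CL with cold was chosen after seeing the data. Mice of the same replicate number did not deviate together. Their mean correlation of deviations was -0.003 in adipocytes and -0.056 in whole-mouse sums (lowest pair -0.844), against 0.002 and 0.043 for other numbers. Whether the number marks a batch of the study cannot be told from these correlations. With the replicate block in edgeR, Cacna1s lost its calls in D7_C (adjusted p = 0.0560) and D7_CL (0.0675).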
